A study of Mus musculus with 16 samples.

Results

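Tex14 and 9 protein-coding genes that lie around it on mouse chromosome 11 were followed in 16 brain RNA sequencing libraries. The 10 genes were picked by name out of 24176 in the table of expression values, because Tex14 looked switched on in some groups of libraries and off in others while nearby genes did not. That choice used the levels of Tex14 and their contrast with those of nearby genes. Tex14 is therefore described with no test, and the tests of the 9 neighbours are not independent of the choice. All 10 genes passed a filter of at least 1 RPKM in at least 2 libraries, which 12348 genes did, and Tex14 passed it through the groups where it is high. RPKM is a read count scaled for transcript length and library depth.

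Rai1, a gene for a nuclear protein that binds chromatin, had been deleted by Cre from a conditional allele (Rai1CKO), and 3 regions of the brain were dissected. Each of 8 groups held 2 libraries, and whether the pair came from different animals is not in the labels. P-values here are therefore set by the spread between libraries, which could be technical. In B6/FVB mice of 3 weeks, cortex was taken from Nestin-Cre;Rai1CKO and from wild-type animals. Striatum was taken from Gad2-Cre;Rai1CKO and wild-type animals, also labelled B6/FVB, both at 3 weeks of age and at 12. Hypothalamus came from B6/129 mice of 8 weeks, either Vglut2-Cre;Rai1CKO or wild type. Nestin-Cre acts in neural progenitors and so in neurons and glia that descend from them, Gad2-Cre in GABAergic neurons and Vglut2-Cre in glutamatergic neurons. The Gad2 and Vglut2 drivers therefore leave part of the cells of the dissected tissue with an intact gene. Strain, age, region and driver differ together between hypothalamus and the rest.

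Tex14 takes its name from the testis. Its protein holds open the bridges that join sister germ cells, by binding the abscission protein Cep55 and keeping it from its partners, and male mice without it are infertile. Brain neurons make no such bridges. The neighbours have unrelated jobs: Sept4 is a filament-forming septin, Mtmr4 a phosphatase of endosomal phosphoinositides, Supt4a a subunit of the elongation factor DSIF, Ppm1e a serine/threonine phosphatase of the brain, Trim37 a ubiquitin ligase, Ska2 a kinetochore protein, Smg8 a regulator of the SMG1 kinase in nonsense-mediated decay, Gdpd1 a glycerophosphodiester phosphodiesterase and Ypel2 a member of the yippee-like family.

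In the reference order (GRCm38.p6) the members run Ypel2, Gdpd1, Smg8, Ska2, Trim37, Ppm1e, Tex14, Sept4, Mtmr4 and Supt4a. Of the genes in between, Rad51c, for a recombination protein, is the one next to Tex14. It is read from the opposite strand, and its start lies so near that one of its RefSeq promoter windows shares 210 bases with the window of Tex14. Another of its windows shares 0 bases, and values per gene do not tell which Rad51c start was used. Tex14 and an annotated start of Rad51c thus lie in the same stretch, which is why the Tex14 window is printed here. The window of the first Sept4 start (Septin4 in the reference) is set beside it as the promoter of the neighbour on the other side. Each window runs from 250 bases before to 50 bases after a start, on the plus strand, taken from RefSeq on GRCm38.p6, with CG pairs in capitals.
Tex14, chr11:87404815-87405114, plus strand: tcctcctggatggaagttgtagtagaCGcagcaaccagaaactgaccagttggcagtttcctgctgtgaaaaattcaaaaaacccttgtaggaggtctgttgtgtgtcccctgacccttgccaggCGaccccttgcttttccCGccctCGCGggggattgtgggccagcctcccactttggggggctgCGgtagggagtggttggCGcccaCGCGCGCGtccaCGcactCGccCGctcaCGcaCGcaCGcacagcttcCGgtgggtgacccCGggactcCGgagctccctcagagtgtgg
Sept4, chr11:87566439-87566738, plus strand: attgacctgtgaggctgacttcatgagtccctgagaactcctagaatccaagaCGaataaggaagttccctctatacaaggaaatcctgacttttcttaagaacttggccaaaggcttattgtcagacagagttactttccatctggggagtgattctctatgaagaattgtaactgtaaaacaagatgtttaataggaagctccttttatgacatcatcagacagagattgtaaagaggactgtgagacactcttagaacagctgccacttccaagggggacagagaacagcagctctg
The Tex14 window held 20 CG pairs and 62.3% G or C, and the Sept4 window held 1 CG pair and 42.3%. The median of all 32851 windows of this length was 7 CG pairs, and 73.5% of them held fewer than Tex14. Windows were matched for 9 of the 10 members, the exception being Mtmr4, and Sept4 had 3 more starts with 5 to 13 CG pairs. Of 7 motifs searched on both strands, the Tex14 window held TTTCCCGC at bases 138 to 145, TTCCCGCC at bases 139 to 146, which overlaps it, and GGGCGG on the opposite strand at bases 142 to 147, all inside the stretch shared with Rad51c. These are found in 1.07%, 2.19% and 35.7% of all windows. The letters CACGTG, held by 7.15% of windows, were not in it. Neither were CCAAT (37.4% of windows), TGACGTCA (1.79%) nor TATAAA (13.6%). A match describes letters and not binding.

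By their RPKM steps the libraries held about 21625758 to 35526720 reads. At these depths 51.9% to 61.3% of the low values of single-exon genes were within 0.05 of a whole read and 7.99% to 13.1% were within 0.05 of the midpoint between whole reads. Regional markers went with the labels. Summed over 6 cortical excitatory neuron genes, RPKM was 151 to 169 in cortex, 2.46 to 16.9 in striatum and 3.33 to 3.78 in hypothalamus. The 8 striatal projection neuron genes in the table summed to 656 to 1052 in striatum, 52.5 to 102 in cortex and 30.0 to 43.1 in hypothalamus. The 9 hypothalamic neuron genes summed to 216 to 264 in hypothalamus and to at most 7.42 elsewhere. Rai1 did not follow the genotype labels in 3 of the 4 sets. It was at 4.28 and 3.03 RPKM in cortex labelled KO against 4.35 and 5.70 labelled WT, at 6.52 and 7.01 against 3.77 and 3.24 in striatum at 3 weeks, at 12.3 and 13.3 against 5.08 and 4.88 in striatum of 12 weeks, and at 8.47 and 6.52 against 3.68 and 3.99 in hypothalamus. Its log2 differences were -0.42, 0.86, 1.28 and 0.87, and the one in striatum at 12 weeks passed the test (limma, adjusted p = 0.0164). That call was lost when any 1 of the 4 libraries of that set was left out, with adjusted p of 0.0668 to 0.31 in limma. In the mean of the 4 differences Rai1 was higher when labelled KO, at 0.65 (SE 0.086, limma, adjusted p = 0.00382). That mean did not pass with a replicate block within each set (limma, adjusted p = 0.0602). With 1 library left out the mean stayed at 0.59 to 0.70. The table has a single value for the whole gene, and no source used here says which part was deleted. Directions below are therefore of libraries labelled KO against libraries labelled WT. Rai1 lies on the same chromosome as Tex14, with 484 protein-coding genes between them.

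Tex14 had 3 levels in these libraries. In cortex it was at 0.0694 and 0.0628 RPKM in the libraries labelled KO, against 1.94 and 2.26 RPKM in those labelled WT. In striatum at 3 weeks it was at 0.0178 and 0.0131 RPKM labelled KO, against 0.0172 and 0.0208 labelled WT. At 12 weeks the striatal values were 0.0230 and 0.0174 labelled KO, against 0.0141 and 0.0227 labelled WT. Every striatal library was thus far below 1 RPKM, whatever its age or label, and the genotype groups overlapped at both ages. In hypothalamus Tex14 was at 2.74 and 3.18 RPKM labelled KO, against 2.93 and 3.18 labelled WT, and these groups overlapped as well. The groups separate by genotype label in cortex alone among the 4 sets.

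**Figure D1:**
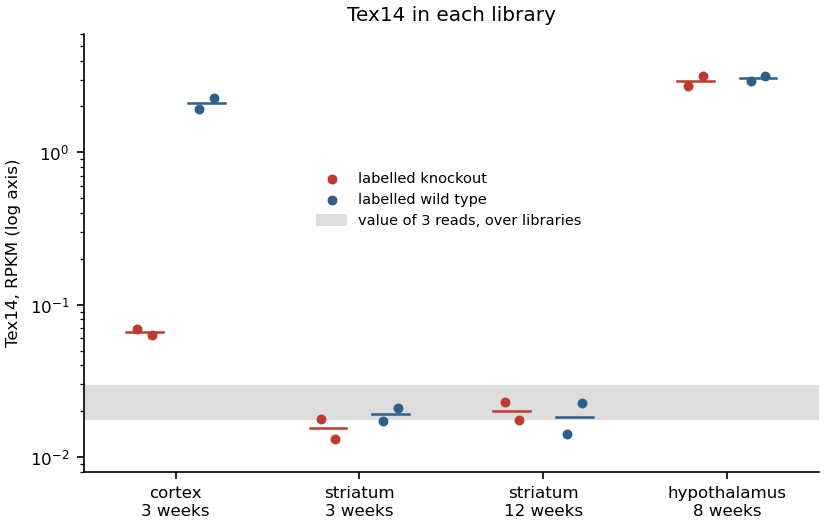
Tex14 in RPKM on a log axis for each of the 16 libraries (points) with group means (bars), libraries labelled knockout left of those labelled wild type in each region and age. The grey band is the value that about 3 reads would give at the estimated depths. Cortex labelled wild type and both hypothalamus groups sit above 1 RPKM, cortex labelled knockout sits near 0.07 RPKM, and all striatum libraries sit in or under the band.

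Group means were highest in hypothalamus, at 2.96 ± 0.307 RPKM labelled KO and 3.05 ± 0.176 RPKM labelled WT (SD, n = 2 each). In cortex they were 0.0661 ± 0.00463 RPKM labelled KO and 2.10 ± 0.225 RPKM labelled WT (SD, n = 2 each). The 4 striatal groups came last, at 0.0155 to 0.0202 RPKM. The 2 hypothalamic groups do not differ beyond their spread, and neither do the 4 striatal ones. The mean in cortex labelled KO was 3.15% of the mean in cortex labelled WT. That share rests on about 16 reads in the libraries labelled KO and 575 in those labelled WT, as estimated from depth. Pooled reads do not measure the spread between libraries, so no interval is given. In striatum the values stand for about 1.45 to 3.40 reads per library. No fold or log2 difference of Tex14 is therefore given against striatum or within it. These read numbers take a Tex14 transcript of 4763 bases and the estimated depths. Several lie between whole reads, such as 2.43 and 2.44, so the unit of 1 read is uncertain and the true counts could be larger. Striatal Tex14 is at the limit of what this depth can detect.

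On the log2(RPKM + 0.5) scale the difference of Tex14 between cortex libraries labelled KO and WT was -2.19. It was -0.04 in hypothalamus. The added 0.5 sets the size of the cortex difference, which was -3.72 with 0.1 in its place. In bulk tissue, fewer cells with Tex14 RNA and less of it per cell cannot be told apart.

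Cell type markers were set beside the cortex difference. Cortical excitatory neuron markers summed to 152 and 167 RPKM in cortex labelled KO and to 151 and 169 RPKM in cortex labelled WT. Oligodendrocyte markers (5 genes) summed to 1033 and 1070 RPKM labelled KO, against 587 and 682 labelled WT. Striatal projection neuron markers summed to 52.5 and 74.3 RPKM labelled KO, against 85.2 and 102 labelled WT. Both of these sets of sums keep the genotype labels apart, and the first does not. Hypothalamic neuron markers summed to 0.83 and 7.42 RPKM labelled KO, against 0.63 and 0.87 labelled WT, where Hcrt and Otp were at 0. Choroid plexus markers (3 genes) summed to 25.2 and 26.0 labelled KO, against 11.3 and 17.9 labelled WT. Astrocyte markers (4 genes) summed to 147 and 157 labelled KO, against 141 and 161 labelled WT, with the groups overlapping. Microglia markers (4 genes) summed to 26.8 and 31.6 labelled KO, against 24.1 and 24.6 labelled WT, with no overlap. Endothelial markers (3 genes) summed to 22.9 and 35.7 labelled KO, against 17.5 and 23.3 labelled WT, with the groups overlapping. Of all tested genes 30.9% kept the labels apart in cortex, in either direction. None of the tested genes on these marker lists passed between labels in cortex (limma). The part of these cell types in the Tex14 difference was not tested.

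The pattern of Tex14 was then sought in the whole table. At least 1 RPKM in both cortex libraries labelled WT and in all 4 hypothalamus libraries was found for 9964 genes. A level under 0.1 RPKM in all 8 striatum libraries was found for 7563 genes. A single gene met both, and it was Tex14. Since these limits were set with its values known, the count describes how far apart its levels are. The next in line were Tmem215, with at most 0.109 RPKM in striatum, and Adcyap1, for the neuropeptide PACAP, with at most 0.121 RPKM. With a limit of 0.5 RPKM in striatum, 30 genes met both rules. The rules ask for a high level in cortex labelled WT but not in cortex labelled KO, which favours low shares of KO over WT. Tex14 was also chosen with this contrast known, so its place is a description. Among the 30, the cortex mean labelled KO was lowest relative to the mean labelled WT for Tex14. Glra3, for a glycine receptor subunit, followed at 41.1%, then Ndst4 at 54.7% and Angpt1 at 56.2%. Tmem215 stood at 93.6% and Adcyap1 at 73.3%.

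**Figure D2:**
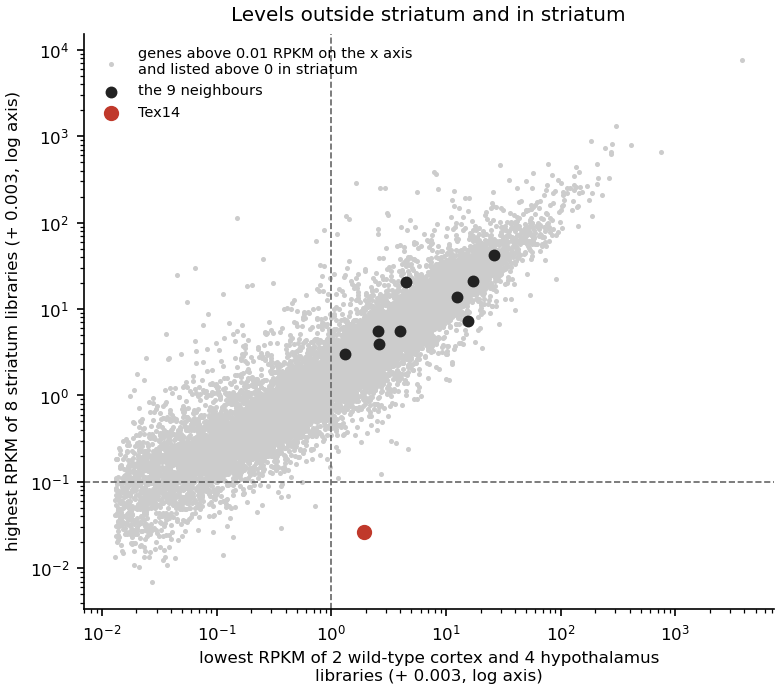
Highest RPKM of the 8 striatum libraries against the lowest RPKM of the 2 cortex libraries labelled wild type and the 4 hypothalamus libraries, both on log axes after adding 0.003, for 16229 genes above 0.01 RPKM on the x axis and listed above 0 in striatum. Dashed lines mark 1 and 0.1 RPKM. Tex14 (red) is the one point right of and below both lines, and the 9 neighbours (black) lie within the cloud.

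The genes most like Tex14 across all 16 libraries, by Pearson r on log2(RPKM + 0.5), were Glra3 (0.95), Edil3 (0.95), Greb1l (0.95), Rsrc1 (0.95), Tenm1 (0.94) and Abca5 (0.94). The least like it were 4933417D19Rik (-0.92), Rasgef1b (-0.91) and Adamts3 (-0.91). Over the 12 B6/FVB libraries alone the leading genes included Zfp583 (0.92), Prdm2 (0.89), Glra3 (0.88), Hgf (0.88) and Rsrc1 (0.88). At the other end stood A230057D06Rik (-0.92), Htr6 (-0.83) and 4933417D19Rik (-0.80). Glra3 and Rsrc1 are the names on both lists of high r. The libraries fall into clusters by region, and in cortex Tex14 also separates by genotype label. These values therefore describe both kinds of difference together. Over the B6/FVB libraries Tex14 was above 0.1 RPKM in cortex labelled WT alone. The listed genes were picked for following Tex14, or running against it, in libraries that include those of cortex. Their cortex differences by label are therefore described with no test. On the log2 scale, cortex libraries labelled KO differed from those labelled WT by -0.91 for Glra3, -0.26 for Rsrc1 and 1.65 for A230057D06Rik. The neighbours ranged from 0.85 for Mtmr4 and 0.76 for Sept4, through 0.72 for Gdpd1 and 0.63 for Ppm1e, to -0.85 for Ypel2 over all 16 libraries. Over the 12 B6/FVB libraries Ppm1e had 0.66, Trim37 0.63, Mtmr4 0.61 and Sept4 0.36.

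None of the 9 neighbours passed the test between libraries labelled KO and WT in any of the 4 sets. In cortex 0.0405% of the 12348 tested genes passed, in striatum 0.0324% at 3 weeks and 0.0405% at 12 weeks, and in hypothalamus 0.0081%. Since the choice of members drew on these comparisons, nothing is read from the count of 0. In the mean of the 4 differences 0 of 9 passed as well, against 0.373% of all genes. At an unadjusted p under 0.05 there were 2 neighbours in cortex, 2 in striatum at 3 weeks, 1 at 12 weeks and 0 in hypothalamus, against 6.26%, 7.55%, 4.4% and 1.76% of all tested genes. The median log2 difference of the neighbours was -0.14 in cortex, -0.20 and 0.02 in striatum at 3 and 12 weeks and -0.01 in hypothalamus. The medians of all tested genes were -0.02, -0.13, 0.08 and -0.06.

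Sept4, whose septin filaments form the annulus of sperm and which is also made in brain, came nearest in cortex. It was at 11.5 and 9.90 RPKM in cortex labelled KO, against 17.2 and 19.1 RPKM in cortex labelled WT. The groups did not overlap, and the log2 difference was -0.74 (SE 0.15, unadjusted p = 0.000225, adjusted p = 0.121, limma). After median-ratio scaling of the libraries the difference was -0.73 and passed (adjusted p = 0.00662). In striatum at 3 weeks Sept4 was at 14.8 and 17.4 RPKM labelled KO, against 19.4 and 21.1 labelled WT (log2 difference -0.33, SE 0.15, adjusted p = 0.619). The striatal libraries of 12 weeks had Sept4 at 13.9 and 14.5 RPKM when labelled KO, against 9.79 and 11.4 labelled WT (0.41, SE 0.15, adjusted p = 0.989). In hypothalamus the values were 25.8 and 30.9 RPKM labelled KO, against 27.4 and 25.1 labelled WT (0.11, adjusted p = 1). Libraries labelled KO were thus the lower ones in cortex and in striatum at 3 weeks, the higher ones in striatum at 12 weeks, and mixed with those labelled WT in hypothalamus.

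The difference between these differences was tested after the Sept4 values had been seen. For cortex minus striatum at 12 weeks it was -1.15 (SE 0.21, unadjusted p = 9.01e-05), and over all genes it did not pass (limma, adjusted p = 0.222, with 0.0162% of genes passing). For cortex minus hypothalamus it was -0.84 (SE 0.21, adjusted p = 0.999), and for striatum at 3 minus 12 weeks -0.74 (SE 0.21, adjusted p = 0.532). None of the 9 neighbours passed in any of the 6 pairs of sets. Sept4 is also transcribed in glia, and the oligodendrocyte sums given above were higher in cortex labelled KO, where Sept4 was lower. Their part in the Sept4 values was not tested.

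Mtmr4, the next gene along from Sept4, was at 10.7 and 10.004 RPKM in cortex labelled KO, against 12.4 and 14.9 labelled WT. These groups did not overlap either (log2 difference -0.38, SE 0.16, unadjusted p = 0.0301, adjusted p = 0.726). It was at 10.1 and 11.8 RPKM in striatum at 3 weeks labelled KO, against 10.8 and 13.9 labelled WT, and at 9.27 and 8.92, against 7.42 and 9.02, at 12 weeks. In hypothalamus it was at 15.8 and 16.5 RPKM labelled KO, against 17.3 and 19.5 labelled WT. Its groups kept apart in cortex and hypothalamus and overlapped in both striatal sets.

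On the other side of Tex14 lies Ppm1e, and between them Rad51c. Ppm1e was at 28.3 and 31.2 RPKM in cortex labelled KO, against 30.3 and 30.0 labelled WT, with overlapping groups (log2 difference -0.02, SE 0.19, adjusted p = 0.999). Its striatal values at 3 weeks were 7.34 and 5.37 RPKM labelled KO, against 4.03 and 4.47 labelled WT (0.52, SE 0.19, adjusted p = 0.619). Slc17a7 and the other cortical excitatory neuron genes summed to 10.3 and 16.9 RPKM in those striatal libraries labelled KO and to 3.02 and 7.07 RPKM in those labelled WT. Ppm1e itself averaged 4.25 RPKM in wild-type striatum at 3 weeks, against 30.2 RPKM in wild-type cortex. In striatum at 3 weeks Slc17a7 alone averaged 9.58 RPKM labelled KO and 3.10 RPKM labelled WT. At 12 weeks the cortical excitatory neuron genes summed to 2.46 and 2.78 RPKM in striatum labelled KO, against 4.61 and 13.7 labelled WT. The part of cortical RNA in the Ppm1e values was not tested. At 12 weeks Ppm1e was at 3.44 and 4.36 RPKM labelled KO, against 3.45 and 5.64 labelled WT, and in hypothalamus at 16.3 and 15.4, against 16.3 and 16.7.

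Rad51c, which is not among the 10 genes, stayed under 1 RPKM in all libraries and so fell below the filter. In cortex it was at 0.423 and 0.288 RPKM labelled KO, against 0.294 and 0.408 labelled WT. The values labelled KO are the lowest and the highest of these 4, so the groups overlap (log2 difference 0.01 without a filter on low values, limma, adjusted p = 1). The cortex groups that Tex14 set apart were thus mixed for Rad51c. In hypothalamus it was at 0.860 and 0.974 RPKM labelled KO, against 0.778 and 0.880 labelled WT, and in the 8 striatal libraries at 0.115 to 0.298. Between wild-type hypothalamus at 8 weeks and striatum at 12 weeks the difference of Rad51c was 1.004 (SE 0.11, adjusted p = 2.98e-05 without a filter).

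**Figure D3:**
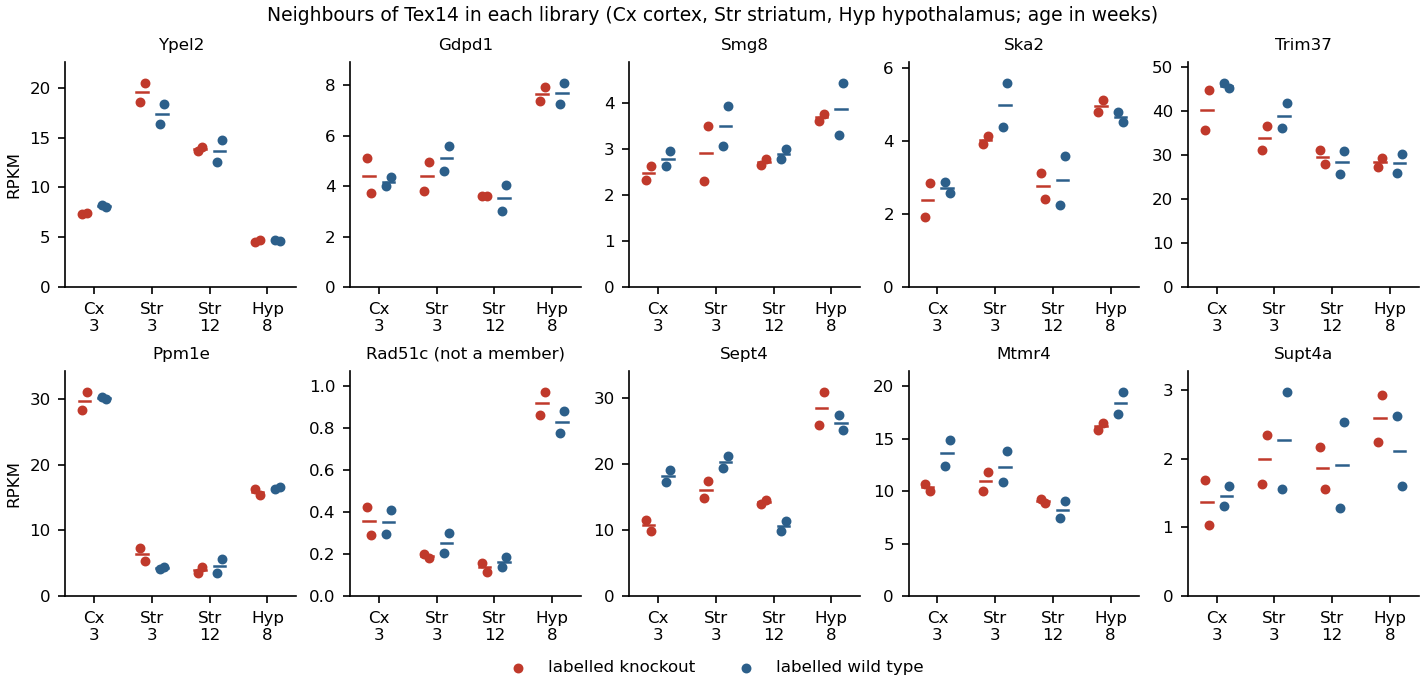
RPKM of the 9 neighbours and of Rad51c in each library (points) with group means (bars), in the order of the genes along the chromosome, libraries labelled knockout left of those labelled wild type. Each panel has its own axis from 0. Genotype groups overlap or lie close together in most panels, Sept4 in cortex at 9.90 to 11.5 against 17.2 to 19.1 RPKM being the widest gap in RPKM, while regions differ.

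The remaining neighbours lay on both sides of 0. In cortex the log2 differences of Ypel2, Gdpd1, Smg8, Ska2, Trim37 and Supt4a lay between -0.19 and 0.06, with adjusted p-values of 0.963 to 0.999. Trim37, at 35.7 and 44.9 RPKM in cortex labelled KO against 46.4 and 45.2 labelled WT, is the most abundant of the 10 genes there. Supt4a, at 1.70 and 1.03 against 1.30 and 1.61 RPKM, is the least abundant of the neighbours, with the largest SE (0.30). In striatum at 3 weeks Ska2 differed by -0.27 (adjusted p = 0.621) and Smg8 by -0.25 (adjusted p = 0.619, limma). In hypothalamus Supt4a had the largest difference of the 9 neighbours, at 2.25 and 2.94 RPKM labelled KO against 2.63 and 1.61 labelled WT, with overlapping groups (0.26, SE 0.30, adjusted p = 1). Groups did not overlap for 4 neighbours in cortex, all of them lower when labelled KO and 0 higher, while 21.6% of all tested genes were lower in this way and 9.3% higher. Those 4 were Ypel2, Trim37, Sept4 and Mtmr4. In striatum at 3 weeks 2 were lower (Ska2 and Sept4) and 2 higher (Ypel2 and Ppm1e), against 23.9% and 10.3% of all genes. At 12 weeks 0 were lower and 1 was higher (Sept4), against 8.16% and 19.9%, and in hypothalamus 1 was lower (Mtmr4) and 0 higher, against 24.6% and 9.65%. Sept4 is thus named in 3 sets, lower in 2 and higher in 1. Ypel2 is named in 2 with opposite signs, and Mtmr4 in 2, lower in both. Trim37 and its overlapping neighbour Ppm1e are uncertain where reads were counted without strand.

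Genes farther out were taken from the 20 protein-coding genes on each side of Tex14. Besides the 9 neighbours these are 31 genes, of which 16 were tested, all of them beyond Ypel2 or Supt4a. None of the 16 passed between libraries labelled KO and WT in any set or in the mean. In cortex their log2 differences ran from -0.27 for Dhx40 to 0.15 for Bzrap1, with a median of -0.10. In striatum at 3 weeks they ran from -0.28 for Vmp1 to 0.33 for Med13, a Mediator subunit. At 12 weeks they ran from -0.34 for Tubd1, a tubulin, to 0.40 for Vmp1, and in hypothalamus from -0.15 for Tubd1 to 0.22 for Dynll2, a dynein light chain.

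**Figure D4:**
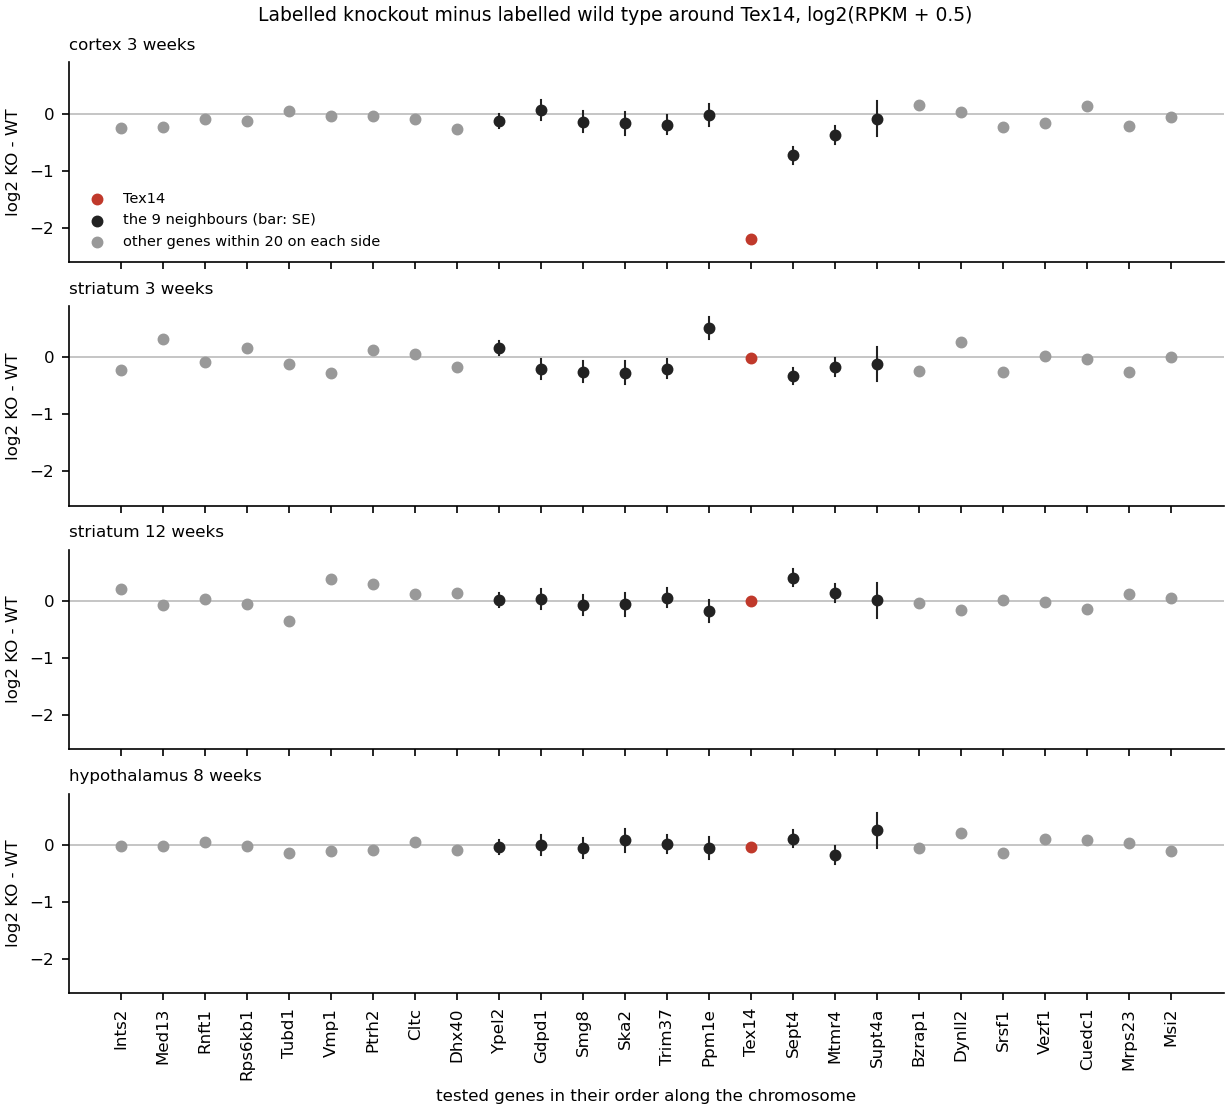
Log2 differences of libraries labelled knockout over libraries labelled wild type on the log2(RPKM + 0.5) scale, for Tex14 (red, no error drawn), its 9 neighbours (black, with SE) and the other tested genes within 20 on each side (grey), in gene order, one panel per set. In cortex Tex14 lies at -2.19 and Sept4 and Mtmr4, beside it, at -0.74 and -0.38, and no other gene in the panels goes beyond 0.52 in either direction. In the striatum panels Tex14 rests on a few reads.

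Between regions and ages the neighbours differed among themselves, in wild-type libraries alone. These 3 comparisons share groups, striatum at 3 weeks in 2 of them and striatum at 12 weeks in 2, so they are not independent. For striatum over cortex at 3 weeks, 3 of 9 neighbours passed, 2 higher and 1 lower. Of all tested genes 43.5% passed, 22.9% higher and 20.6% lower. Ppm1e was at 4.03 and 4.47 RPKM in striatum, against 30.3 and 30.0 RPKM in cortex (log2 difference -2.69, SE 0.19, adjusted p = 2.71e-07). Ypel2 was at 16.4 and 18.4 RPKM in striatum, against 8.25 and 8.01 in cortex (1.05, SE 0.12, adjusted p = 1.82e-05). Ska2 was at 4.39 and 5.60 RPKM in striatum, against 2.87 and 2.56 in cortex (0.77, SE 0.20, adjusted p = 0.0072), and missed the threshold without striatum replicate 2 (adjusted p = 0.08). Next to Tex14, Sept4 differed by 0.16 (SE 0.15, adjusted p = 0.408) and Mtmr4 by -0.14 (SE 0.16, adjusted p = 0.473). Ppm1e, like Tex14, was low in striatum, but at 4 RPKM and not near 0.

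For striatum at 12 over 3 weeks, 4 of 9 neighbours passed as lower and 0 as higher. Of all tested genes 31.5% passed, 24.4% lower and 7.16% higher. Sept4 was at 9.79 and 11.4 RPKM at 12 weeks, against 19.4 and 21.1 RPKM at 3 weeks (-0.91, SE 0.15, adjusted p = 0.000715). Mtmr4 was at 7.42 and 9.02 RPKM, against 10.8 and 13.9 (-0.56, SE 0.16, adjusted p = 0.0173). Ska2 was at 2.26 and 3.60 RPKM at 12 weeks, against 4.39 and 5.60 at 3 weeks (-0.70, SE 0.20, adjusted p = 0.0183). Trim37 stood at the threshold, at 25.8 and 30.9 RPKM against 36.1 and 41.8 (-0.45, SE 0.16, adjusted p = 0.0496). The median of all genes was -0.23 in this comparison, and the median of the neighbours -0.45. After median-ratio scaling, which takes the median of all genes to -0.03, Sept4 and Mtmr4 passed, while Ska2 (adjusted p = 0.0514) and Trim37 (adjusted p = 0.265) did not. Without wild-type replicate 2 at 3 weeks or replicate 1 at 12 weeks, Sept4 alone passed. Glial markers were lower as well. The 5 oligodendrocyte markers all passed as lower and summed to 431 and 463 RPKM at 12 weeks, against 2149 and 2784 RPKM at 3 weeks. The 4 astrocyte markers all passed as lower and summed to 60.3 and 71.0 RPKM, against 161 and 169. The part of glia in the Sept4 values was not tested.

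For hypothalamus at 8 weeks over striatum at 12 weeks, where strain, age and region differ together, 5 of 9 neighbours passed as higher and 1 as lower. Of all tested genes 64.8% passed, 54.5% higher and 10.2% lower. Sept4 was at 27.4 and 25.1 RPKM in hypothalamus, against 9.79 and 11.4 in striatum (1.27, SE 0.15, adjusted p = 7.28e-06). Mtmr4 was at 17.3 and 19.5 RPKM, against 7.42 and 9.02 (1.12, SE 0.16, adjusted p = 3.85e-05), and Ppm1e at 16.3 and 16.7, against 3.45 and 5.64 (1.79, SE 0.19, adjusted p = 4.09e-06). Gdpd1 was at 7.28 and 8.11 RPKM in hypothalamus, against 3.02 and 4.06 in striatum (1.03, SE 0.17, adjusted p = 0.000202). The one that was lower was Ypel2, at 4.74 and 4.68 RPKM in hypothalamus, against 12.5 and 14.8 in striatum (-1.44, SE 0.12, adjusted p = 4.35e-07). The median of all genes was 0.49 here, and the differences are to be read against it. Ska2 passed at 0.62 (adjusted p = 0.0154). All 4 astrocyte markers passed as higher, with sums of 185 and 218 RPKM in hypothalamus against 60.3 and 71.0 in striatum. Of the 5 oligodendrocyte markers 4 passed as higher, with sums of 677 and 694 RPKM against 431 and 463. Their part in the Sept4 difference was not tested. After median-ratio scaling, which takes the median of all genes to -0.01, Ska2 was at 0.11 and did not pass (adjusted p = 0.648), while Trim37 passed as lower at -0.58 (adjusted p = 0.00266). Ska2 also missed the threshold without striatum replicate 1 or either hypothalamus library labelled WT (adjusted p = 0.0504 to 0.212).

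Genes that work with Tex14 in the testis, and other genes of germ cells, were taken from lists. Of 17 bridge and abscission genes, 9 were tested, and 8 stayed under 1 RPKM in every library. Cep55, the protein that Tex14 binds, reached at most 0.173 RPKM and Kif23 at most 0.125 RPKM, while Rbm44, another bridge protein, reached 0.0354 RPKM. None of the 9 passed between libraries labelled KO and WT in any set or in the mean, with a median of 0.11 in cortex, where Sept2 (0.18, adjusted p = 0.947) and Tsg101 (-0.21, adjusted p = 0.95) had the smallest p. Of 26 germ cell genes, 24 stayed under 1 RPKM in every library and 11 of them under 0.1 RPKM. The exceptions were Dazl, an RNA-binding protein of germ cells, at up to 1.97 RPKM, and Sycp3, of the meiotic chromosome axis, at up to 1.54 RPKM. Tex14 was above all values of these germ cell genes in every hypothalamus library, at 2.74 to 3.18 RPKM. In cortex labelled WT it was above them in replicate 2, at 2.26 RPKM, but not in replicate 1, at 1.94 RPKM. In striatum Tex14 was at 0.0131 to 0.0230 RPKM. Dazl averaged 1.31 RPKM in wild-type striatum and 0.425 RPKM in wild-type cortex at 3 weeks (0.97, SE 0.22, adjusted p = 0.00297), and 0.143 RPKM in wild-type hypothalamus against 1.42 RPKM in striatum at 12 weeks (-1.57, SE 0.22, adjusted p = 3.84e-05). Its order of regions is the reverse of that of Tex14. Sycp3 averaged 1.31 RPKM in wild-type hypothalamus and 0.594 RPKM in striatum at 12 weeks (0.72, SE 0.15, adjusted p = 0.000921). Neither passed between genotype labels, with cortex differences of -0.19 for Dazl and 0.10 for Sycp3.

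In the wild-type comparisons, bridge and abscission genes passed as 5 higher and 2 lower of 9 for striatum over cortex, 0 and 3 for 12 over 3 weeks, and 6 and 1 for hypothalamus over striatum, beside the shares of all genes given above. Sept9, a septin like Sept4, differed by -1.36 (adjusted p = 4.43e-05), -0.56 (adjusted p = 0.0296) and 1.31 (adjusted p = 2.95e-05) in these comparisons. Sept2 differed by 1.004 (adjusted p = 0.00012), -1.02 (adjusted p = 0.00032) and 0.58 (adjusted p = 0.00398). Among 28 other genes named Tex with a number, 5 were tested and 0 passed between genotype labels in any set. For striatum over cortex 2 of the 5 were higher (Tex10 and Tex264), against 22.9% of all tested genes. For 12 over 3 weeks 1 of the 5 was lower (Tex261), against 24.4%. For hypothalamus over striatum 4 of the 5 were higher (Tex2, Tex9, Tex10 and Tex261), against 54.5%.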

How the data were processed

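The authors deposited RPKM values for 24176 gene symbols in 16 libraries, which are the values used here. The tools named in the submitters' processing notes are CASAVA 1.8.2, cutadapt 1.6 and TopHat2, and the build is mm9. Which program counted reads, whether it used strand and what RPKM was divided by is not stated in them, so values of overlapping genes are uncertain.

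The 12348 genes that reached 1 RPKM in 2 or more libraries were fitted on log2(RPKM + 0.5) with limma 3.58.1 (R 4.3.3). The fit had 8 group means over 16 libraries, a variance trend and 8 residual degrees of freedom, and was tested on simulated data. The Benjamini-Hochberg adjustment covered all genes tested within each of 8 comparisons, and the threshold was 0.05. Log2 differences understate changes of low genes. The members, gene lists and tests were chosen with earlier results of these data known. Named genes are the members, Rai1, genes most and least like Tex14 (6 highest and 3 lowest r), list members past the threshold or of smallest p, and genes at the ends of ranges, which were named after their values were seen. A gene that the rule on likeness names is not reported here.

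Read numbers were estimated from the RPKM step of 1 read in single-exon genes. Of 297 to 380 such genes per library, 51.9% to 61.3% gave whole reads within 0.05. With so many values not whole, no count test was run and no interval is given. Gene order came from GRCm38.p6 annotation and promoter windows from RefSeq on that build, with no coordinates converted. Motifs were matched by exact letters. Alternatives were other pseudocounts, filters, scaling, variance settings, replicate blocks, fits of the compared groups alone and leaving out each library.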

Additional observations from a re-analysis of the deposited data

How the results depend on the processing

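With 2 libraries a group small differences were unlikely to pass, and a neighbour that did not pass is not shown to be the same in both groups. Depth limits Tex14 in striatum to a few reads. The cortex difference of Tex14 on the log2 scale was -3.72 with a pseudocount of 0.1 and -1.54 with a pseudocount of 1, instead of -2.19. After median-ratio scaling 1 neighbour, Sept4, was called in cortex instead of 0, with the cause not tested, and in the other 3 sets and the mean the count stayed at 0 under each alternative run. For striatum at 12 over 3 weeks in wild types, 2 calls instead of 4 were made after median-ratio scaling, and also 2 in a fit of the compared groups alone, which leaves 2 residual degrees of freedom. Leaving out 1 library gave 1 to 6 calls there. Rai1, called in 1 set, was called in 0 with no filter on low values (20473 genes tested), in 0 with a replicate block within each set and in 2 in fits of the compared groups alone. Of 567 neighbour values under settings that kept all libraries, 8 changed sign, each after median-ratio scaling, 8 lost their call and 6 gained one. Of 396 with 1 library left out, 51 changed sign, 11 lost their call and 3 gained one, and no value that was called in either fit changed sign.

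The labels do not say that libraries with the same replicate number are pairs, and the data gave no uniform sign of it. Within a set, the differences between replicates 1 and 2 under the 2 labels correlated across genes at r of -0.34 in cortex, 0.44 and -0.22 in striatum at 3 and 12 weeks and 0.15 in hypothalamus. With the replicate block within each set 0 neighbours were called in each knockout comparison, and between the 2 wild-type groups compared the block gave 3, 6 and 6 calls for striatum over cortex, 12 over 3 weeks and hypothalamus over striatum.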
